A study of Mus musculus with 10 samples.

Results

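The antioxidant, glutathione and thioredoxin genes examined here are a list of 36 genes out of 22553 in the count table. They were named by symbol for what their products do, and all 36 were found in the table. They cover the NRF2 regulators, the enzymes that remove superoxide and hydrogen peroxide, the peroxiredoxins, the glutathione and thioredoxin systems, and ferritin. The libraries were made from poly(A) RNA of regulatory T cells (Treg) sorted as YFP-positive from spleen and lymph node of C57BL/6 female mice. The control mice were Tfamfl/+Foxp3Yfp-Cre/+ and the knockout (KO) mice Tfamfl/flFoxp3Yfp-Cre/+, and their age is not given in the sources used. There were 3 libraries of each genotype, and each was a pool of cells from 2 to 3 littermates. Both genotypes carried 1 Foxp3 Yfp-Cre allele, which expresses Cre in Foxp3-expressing cells, so the controls also lose 1 Tfam copy where Cre acts, and the comparison is of cells with both copies against cells with 1 copy targeted. Foxp3 lies on the X chromosome, so a heterozygous female also holds Treg that do not express the Cre allele, and sorting on YFP leaves these out.

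TFAM packages mitochondrial DNA and is needed to transcribe it, and that DNA encodes core subunits of the respiratory chain. A working respiratory chain leaks superoxide. Superoxide dismutases turn superoxide into hydrogen peroxide, and catalase, peroxiredoxins and glutathione peroxidases reduce the peroxide to water. Thioredoxins recharge peroxiredoxins, glutathione recharges glutathione peroxidases, and glutaredoxins use glutathione to remove it from protein thiols. Many of these enzymes exist as separate genes for the cytosol and for the mitochondrial matrix. NRF2 (Nfe2l2) is the transcription factor that induces many of the cytosolic genes when its inhibitor KEAP1 is oxidized.

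The libraries held between 19087757 and 27490253 counts each. Tfam stood at 25.9, 30.6 and 42.4 CPM (read counts scaled to library size, with TMM factors) in control replicates 1 to 3 and at 15.6, 14.4 and 16.5 CPM in KO replicates 1 to 3, so no library contradicted its label. The summed level of 8 Treg markers lay between 2898 and 3254 CPM in control and between 2847 and 3163 CPM in KO. The summed level of 15 myeloid markers lay between 767 and 1216 CPM in control and between 773 and 1581 CPM in KO, highest in replicate 2 of both genotypes. None of the 15 was at 0 in every library, though S100a8 had at most 1 count in any library. Of 10 erythroid markers 9 were in the table, and their sum lay between 9.33 and 17.1 CPM in control and 10.5 and 19.96 CPM in KO. The 6 CD8 T and NK cell markers summed to between 26.96 and 28.9 CPM in control and 30.1 and 33.2 CPM in KO. The 8 B cell markers summed to between 552 and 579 CPM in control and 399 and 434 CPM in KO, nearly all of it Ighm, which was called lower. Of the 7 that were tested, 3 had a fitted log2 fold change below 0 and 4 above. The part of these cells in the results was not tested.

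Of the 36 antioxidant genes, 34 passed the filter on low counts and 1 of these fell in KO, the cytosolic glutaredoxin gene Glrx. None rose, and 33 did not pass the test (edgeR quasi-likelihood test, Benjamini-Hochberg adjusted p under 0.05 over 11990 genes). The share of the 11990 genes with such a call was 1.39% for lower and 0.1% for higher. DESeq2 and limma-voom also called 1 member lower and 0 higher. At an unadjusted p under 0.05, 7 members were lower and 0 higher, beside 7.22% and 5.4% of all tested genes. With the replicate number as a block, 2 members were lower and 0 higher, Glrx and the cytosolic thioredoxin gene Txn1, where 4.39% of all genes were called lower and 1.97% higher.

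Among the members that did not pass, most fitted differences were small, the widest being Gpx7 at -1.10 and Mgst3 at 0.47 on the log2 scale. Fitted log2 fold changes were below 0 for 27 of the 34 tested members, Glrx included, and for 26 of the 33 without it, beside 51.2% of all tested genes. The median over the 34 was -0.09, beside -0.0045 over all tested genes. Without control replicate 3 only 20 of the 34 were below 0 and the median was -0.055, beside 47.3% and 0.0092 over all tested genes. Without both replicates 2, 29 of the 34 were below 0 and the median was -0.14, beside 53.6% and -0.017. Within same-numbered libraries the members' median was -0.06, -0.01 and -0.21 for replicates 1 to 3, so the lean was widest in the third. Over all tested genes these medians were -0.00079, 0.014 and -0.033. In 31 of the 34 the 95% interval of the fold change lay wholly within 1.5-fold in either direction, the exceptions being Glrx, Gpx7 and Mgst3. In 7 of the 34 every KO library lay below every control library, where this held for 10.4% of all tested genes, and in 0 every KO library lay above, where it held for 8.63%. The 7 were Glrx, Gpx7, Prdx4, Txn1, Sod2, Txnrd1 and Gsr. In bulk RNA, fewer cells of a type and less RNA per cell cannot be told apart.

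**Figure D1:**
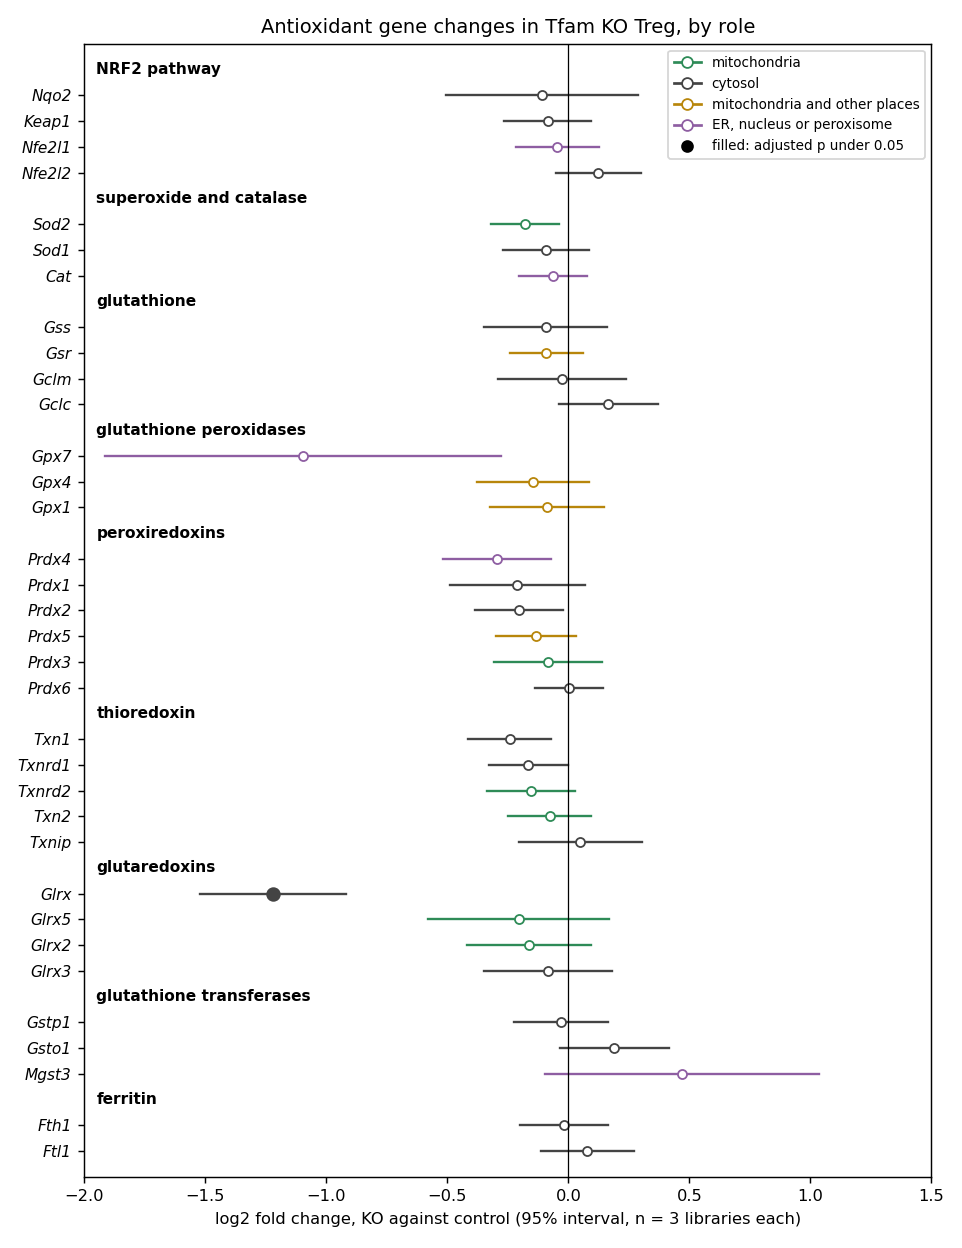
Log2 fold change of KO against control (x axis) for the 34 tested antioxidant genes, grouped by role, with points at the fitted value and lines for the 95% interval. Colour gives the compartment of the protein, and the filled point, Glrx at -1.22, is the one with an adjusted p under 0.05.

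Glutaredoxins remove glutathione from protein cysteines, and Glrx encodes the main cytosolic one. Glrx (ENSMUSG00000021591) stood at 19.4, 23.8 and 17.8 CPM in control replicates 1 to 3 and at 8.15, 9.54 and 8.45 CPM in KO replicates 1 to 3. All 3 KO libraries lay close together and below the lowest control library. The gene fell 2.33-fold, or by 1.22 ± 0.13 on the log2 scale (SE; adjusted p = 0.00544), with a 95% interval of 1.89-fold to 2.87-fold. Within same-numbered libraries the log2 difference was -1.25, -1.32 and -1.07. It ranked 154 from the lowest log2 fold change among 11990 tested genes. Its counts summed to 1514 over the control and 550 over the KO libraries. The call held in DESeq2 (adjusted p = 3.87e-11), in limma-voom (0.0104), with the block (1.99e-05) and without both replicates 2 (0.0175), but was lost without KO replicate 1 (0.0538). In the other fits that left out 1 library its adjusted p lay between 0.00534 and 0.0323.

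The remaining glutaredoxins did not pass the test. Glrx2, a mitochondrial glutaredoxin, stood at 15.7, 16.8 and 20.3 CPM in control and 15.1, 15.9 and 16.3 CPM in KO (fitted log2 difference -0.16 ± 0.11, adjusted p = 0.598). The groups overlapped, and control replicate 3 was the highest library. Glrx5, a mitochondrial protein of iron-sulfur cluster assembly, stood at 41.9, 35.0 and 56.6 CPM in control and 35.0, 38.1 and 42.96 CPM in KO (-0.21 ± 0.16, adjusted p = 0.658). Glrx3, a cytosolic protein that handles iron-sulfur clusters, stood at 56.8, 59.5 and 75.4 CPM in control and 55.0, 60.6 and 65.3 CPM in KO (-0.09 ± 0.12, adjusted p = 0.808). Glrx5 and Glrx3 were highest in replicate 3 of both genotypes.

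The promoter sequence of Glrx is shown because this is the one member that fell. It is the 250 bases before the first RefSeq start of the gene (chr13:75839635-75839884, plus strand, GRCm38.p6), in lower case because neither motif searched below has a match here.
Glrx: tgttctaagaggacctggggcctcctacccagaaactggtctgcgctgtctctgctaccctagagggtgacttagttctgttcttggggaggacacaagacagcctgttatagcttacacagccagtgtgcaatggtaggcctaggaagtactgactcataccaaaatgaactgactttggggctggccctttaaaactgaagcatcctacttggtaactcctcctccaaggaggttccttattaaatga
The first motif is the core of the antioxidant response element bound by NRF2 with small MAF proteins, TGACNNNGC, and the second the carbohydrate response element described with Txnip. Both strands were searched. RefSeq promoters were matched by symbol for 33 of the 36 members, all but Gclc, Gsr and Prdx6.

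The thioredoxin system reduces disulfides with electrons from NADPH. Txn1, cytosolic thioredoxin, stood at 88.8, 99.7 and 91.9 CPM in control and at 78.5, 84.5 and 73.9 CPM in KO. Every KO library was below every control library. The fitted difference was -0.24 ± 0.08 on the log2 scale (adjusted p = 0.225), and with the replicate block Txn1 was called lower (adjusted p = 0.026), though without the block neither DESeq2 (0.194) nor limma-voom (0.241) called it. Txnrd1, the cytosolic reductase that recharges it, stood at 59.3, 63.3 and 68.5 CPM in control and 57.3, 57.04 and 56.0 CPM in KO (-0.17 ± 0.07, adjusted p = 0.384). The KO libraries were tightly grouped just under the lowest control library. In mitochondria, Txn2 stood at 77.1, 77.1 and 75.8 CPM in control and 76.0, 76.6 and 65.3 CPM in KO (-0.08 ± 0.08, adjusted p = 0.722). KO replicate 3 alone was low. The mitochondrial reductase Txnrd2 stood at 25.8, 28.1 and 28.7 CPM in control and 23.7, 25.8 and 24.7 CPM in KO (-0.16 ± 0.08, adjusted p = 0.465).

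Txnip encodes an arrestin-domain protein that binds thioredoxin and limits glucose uptake, and it responds to glucose through the factors MondoA (Mlxip) and MLX. Its level was 1037, 856 and 1017 CPM in control and 1142, 975 and 894 CPM in KO, with overlapping groups (fitted log2 difference 0.05 ± 0.11, adjusted p = 0.893). Its relative Arrdc4, another arrestin-domain gene known as a MondoA target and not a member, stood at 10.9, 8.86 and 10.2 CPM in control and at 4.09, 3.84 and 5.56 CPM in KO. Arrdc4 fell 2.22-fold (-1.15 ± 0.17, adjusted p = 0.0155), with no overlap between the groups. The call was lost on leaving out KO replicate 1 (adjusted p = 0.112), KO replicate 2 (0.0718), control replicate 1 (0.0732) or both replicates 2 (0.0772). A test of the difference between Txnip and Arrdc4 was not made. Arrdc3, another arrestin-domain gene, had a fitted log2 difference of -0.04 ± 0.10 (adjusted p = 0.913), and Mlxip itself of 0.32 ± 0.15 (adjusted p = 0.424). Arrdc3 and Mlxip were chosen for naming with their values in view.

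The promoters of Txnip and Arrdc4 are shown because these relatives, both known to respond to MondoA, had different values. Each is the 250 bases before the RefSeq start, for Txnip chr3:96557707-96557956 on the plus strand and for Arrdc4 chr7:68749239-68749488 on the minus strand (GRCm38.p6), written in the direction of the gene. Capitals mark the carbohydrate response element in Txnip and an E-box in Arrdc4. Arrdc4 also holds an antioxidant response element core on the opposite strand, 28 to 20 bases before the start, which is left in lower case.
Txnip: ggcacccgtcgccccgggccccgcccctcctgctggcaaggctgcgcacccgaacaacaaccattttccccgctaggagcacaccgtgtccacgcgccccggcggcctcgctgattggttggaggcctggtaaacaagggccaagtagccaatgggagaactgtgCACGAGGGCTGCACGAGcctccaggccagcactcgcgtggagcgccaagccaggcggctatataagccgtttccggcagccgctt
Arrdc4: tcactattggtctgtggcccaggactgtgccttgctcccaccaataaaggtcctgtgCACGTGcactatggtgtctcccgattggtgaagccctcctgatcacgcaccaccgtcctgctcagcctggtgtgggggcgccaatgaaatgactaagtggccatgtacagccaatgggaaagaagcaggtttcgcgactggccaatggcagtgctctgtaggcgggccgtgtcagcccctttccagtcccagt
The carbohydrate response element, a pair of E-box-like sequences with a fixed gap, was searched on both strands and found in 1 of 33 members (Txnip) and in 0.326% of 27025 genes with a promoter. The E-box CACGTG, which can lie inside that element, was found in 6.86% of genes, and among the members in Prdx4 and Glrx2. These matches are letters in a window and were not tested as sites.

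**Figure D2:**
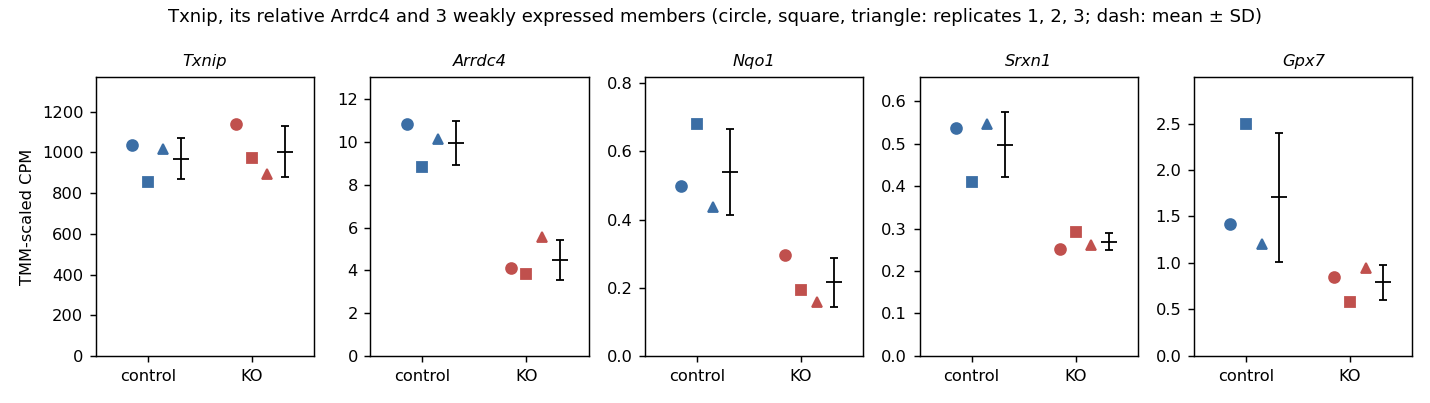
TMM-scaled CPM (y axis, from 0) of Txnip, Arrdc4 and 3 weakly expressed members in each of 3 control and 3 KO libraries, with symbols for replicates 1 to 3 and dashes for mean ± SD. Txnip overlaps between the groups, while Arrdc4, Nqo1, Srxn1 and Gpx7 lie lower in all 3 KO libraries; Arrdc4 passed the test, Gpx7 did not, and Nqo1 and Srxn1 were below the count filter.

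Superoxide dismutases differed in how tightly their libraries grouped. Sod2, the manganese enzyme of the mitochondrial matrix, stood at 51.4, 52.5 and 53.3 CPM in control and 45.2, 46.9 and 46.8 CPM in KO. The groups did not overlap, and the log2 differences of same-numbered libraries were -0.19, -0.16 and -0.19. The fitted log2 fold change was -0.18 ± 0.06, which did not pass (unadjusted p = 0.0182, adjusted p = 0.279, and 0.0912 with the block). Sod1, the copper-zinc enzyme of the cytosol, stood at 161, 167 and 174 CPM in control and 146, 173 and 151 CPM in KO (-0.09 ± 0.08, adjusted p = 0.676), and its groups overlapped. Cat, the peroxisomal catalase, stood at 117, 124 and 129 CPM in control and 118, 117 and 119 CPM in KO (-0.06 ± 0.06, adjusted p = 0.717).

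Peroxiredoxins reduce peroxides with a cysteine in their active site. Of the 6 tested, 0 passed and 5 had fitted values below 0. Prdx1, cytosolic, stood at 72.8, 84.6 and 98.7 CPM in control and 64.5, 76.2 and 80.5 CPM in KO. The level differed more between replicates than between genotypes, and in every same-numbered pair the KO library was lower (-0.17, -0.15 and -0.29 on the log2 scale; fit -0.21 ± 0.12, adjusted p = 0.517, and 0.0547 with the block). Prdx3, the matrix enzyme, stood at 56.7, 56.7 and 70.3 CPM in control and 54.3, 58.5 and 60.8 CPM in KO (-0.08 ± 0.10, adjusted p = 0.776). Among the others, the cytosolic Prdx2 had a fitted log2 difference of -0.21 ± 0.08, Prdx4 of the endoplasmic reticulum of -0.29 ± 0.10, Prdx5, found in mitochondria, cytosol and peroxisomes, of -0.13 ± 0.07, and Prdx6, which uses glutathione, of 0.00 ± 0.06, with adjusted p-values between 0.266 (Prdx4) and 0.996 (Prdx6).

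None of the genes for glutathione synthesis and recycling passed the test. Glutamate-cysteine ligase makes the first step, and its catalytic subunit Gclc had a fitted log2 difference of 0.16 ± 0.09 (73.7 ± 5.66 CPM in control and 82.6 ± 8.03 CPM in KO, SD, n = 3 each) and its modifier subunit Gclm of -0.03 ± 0.12. Gss, which adds glycine, and Gsr, which reduces oxidized glutathione, both stood at -0.09 (SE 0.11 and 0.07), and the 4 adjusted p-values lay between 0.492 and 0.954. None of the 3 glutathione peroxidases passed either. Gpx1, the selenoenzyme that reduces hydrogen peroxide, stood at 188, 214 and 185 CPM in control and 191, 203 and 158 CPM in KO (-0.09 ± 0.10, adjusted p = 0.769). Gpx4, which reduces lipid peroxides and restrains ferroptosis, stood at 64.9, 70.0 and 63.9 CPM in control and 59.0, 68.5 and 51.9 CPM in KO (-0.15 ± 0.10, adjusted p = 0.596). For both, KO replicate 3 was the lowest library and the groups overlapped.

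Gpx7, a peroxidase of the endoplasmic reticulum, was weakly expressed in both groups. Its counts were 37, 55 and 33 in control and 20, 12 and 18 in KO, or 1.42, 2.50 and 1.20 CPM against 0.844, 0.584 and 0.944 CPM. The fitted log2 fold change was -1.10 ± 0.36 (adjusted p = 0.251), and it was not called with the block (0.0817). Control replicate 2 held the most, and without it the log2 fold change was -0.73. The ratio of summed counts, control over KO and scaled for depth, was 2.10 (95% exact binomial interval 1.5 to 2.97, for counting error only).

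Glutathione transferases conjugate glutathione to reactive compounds. Gsto1 had a fitted log2 difference of 0.19 ± 0.10 and Gstp1 of -0.03 ± 0.08, and Mgst3, a membrane enzyme, of 0.47 ± 0.25, with 2.05 ± 0.119 CPM in the control libraries and 2.83 ± 0.771 CPM in the KO libraries (SD, n = 3 each). All 3 missed the threshold (adjusted p = 0.47, 0.919 and 0.478). Gsto1 and Mgst3 were higher in KO in replicates 1 and 2 and lower in replicate 3. Gstp1 can share reads with its near-identical neighbour Gstp2, which had between 2 and 7 counts per library.

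NRF2 pathway genes showed no called change. Nfe2l2 stood at 55.3, 59.9 and 63.5 CPM in control and 61.7, 64.0 and 69.0 CPM in KO (fitted log2 difference 0.12 ± 0.08, adjusted p = 0.551), with the KO library higher in each same-numbered pair and the groups overlapping. Its inhibitor Keap1 stood at 141, 130 and 123 CPM in control and 127, 131 and 114 CPM in KO (-0.08 ± 0.08, adjusted p = 0.704). Nfe2l1, a related factor that drives proteasome genes, had a fitted log2 difference of -0.05 ± 0.07, and the quinone reductase Nqo2 of -0.11 ± 0.17 (adjusted p = 0.844 and 0.841).

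The 2 members that did not pass the filter, Nqo1 and Srxn1, encode a quinone reductase and the sulfiredoxin that repairs overoxidized peroxiredoxins, and both are widely used as NRF2 target genes. Nqo1 had 13, 15 and 12 counts in control and 7, 4 and 3 in KO. Srxn1 had 14, 9 and 15 counts in control and 6, 6 and 5 in KO. Both were lower in every KO library, but a count of 3 is worth between 0.110 and 0.157 CPM here and their levels did not exceed 0.682 CPM. The ratio of summed counts, control over KO and scaled for depth, was 2.40 for Nqo1 (95% exact binomial interval 1.28 to 4.77) and 1.88 for Srxn1 (1.03 to 3.54), intervals that leave out the spread between pools. In the edgeR fit with no filter on low counts neither passed (fitted log2 difference -1.26, adjusted p = 0.343 for Nqo1 and -0.88, adjusted p = 0.519 for Srxn1).

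The antioxidant response element core TGACNNNGC was present in the 250 bases before a RefSeq start in 5 of the 33 members with a promoter (Nfe2l2, Gclm, Sod1, Prdx1 and Txnrd1), beside 11.5% of 27025 genes. It can overlap the AP-1 motif TGACTCA, as it does in Prdx1. Bases further from the start were not searched, so a gene without a match here may hold the motif elsewhere. The stretches around the match in Prdx1 and Gclm are printed as examples, since these genes for peroxide removal and glutathione synthesis show what the motif looks like in a member. They lie at chr4:116685440-116685499 and chr3:122245397-122245456 (GRCm38.p6, both plus strand), and capitals mark the match, which reads TGACTCAGC in Prdx1 and TGACGGTGC in Gclm on the opposite strand.
Prdx1: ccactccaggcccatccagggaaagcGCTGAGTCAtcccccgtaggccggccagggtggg
Gclm: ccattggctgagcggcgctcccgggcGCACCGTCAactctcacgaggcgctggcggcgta
None of these 5 genes passed the test in the fit without the block or with it, and their log2 fold changes lay between -0.21 (Prdx1) and 0.12 (Nfe2l2).

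Ferritin stores iron and so keeps it from reacting with peroxide. Fth1, the heavy chain, stood at 616, 589 and 656 CPM in control and 609, 663 and 568 CPM in KO (fitted log2 difference -0.02 ± 0.08, adjusted p = 0.959). Ftl1, the light chain, stood at 344, 368 and 374 CPM in control and 375, 425 and 348 CPM in KO (0.08 ± 0.08, adjusted p = 0.752). Both were highest in KO replicate 2, the library with the highest summed level of myeloid markers. Control replicate 2 had the highest such sum of the controls, the lowest Fth1 of the controls and an Ftl1 level that was not their highest. The part of myeloid cells in the ferritin levels was not tested. Ferritin genes have processed copies that can share reads, so these values are uncertain.

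Mitochondrial and cytosolic members were then set side by side. All 6 matrix genes (Sod2, Prdx3, Txn2, Txnrd2, Glrx2 and Glrx5) had fitted values below 0, between -0.21 and -0.08, with a median of -0.16 and 0 called. Of the 19 tested genes for cytosolic proteins, 13 had fitted values below 0, the median was -0.08 and 1 (Glrx) was called. Over all tested genes 51.2% of fitted values were below 0, the median was -0.0045 and 1.39% were called lower. The 19 include genes with no matrix counterpart among the members, such as Nfe2l2, Fth1 and Gclc, so these medians are of unlike sets. The cytosolic counterparts of the 6 matrix genes (Sod1, Prdx1, Txn1, Txnrd1, Glrx and Glrx3) also all had fitted values below 0, between -1.22 and -0.09. The 4 genes for proteins found in both places had a median of -0.11, and the 5 tested genes for other compartments of -0.06, with 0 called in either. The medians rested on single libraries: without control replicate 3 the matrix median was -0.07 and the cytosolic median 0.02, and without KO replicate 1 the cytosolic median was -0.01. So did some directions, since without control replicate 3 Prdx3, Glrx5 and Glrx3 had fitted values above 0 (0.029, 0.0062 and 0.052).

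Within a library, the log2 ratio of a matrix isoform to its cytosolic counterpart does not depend on scaling, and 6 such pairs were compared by an exact permutation test of 3 against 3 libraries, two-sided, which cannot give a p below 0.1. The Glrx2/Glrx ratio was -0.30, -0.50 and 0.19 in control and 0.89, 0.74 and 0.95 in KO. All KO libraries lay above all control libraries, the ratio being 2.09-fold higher in KO (difference 1.06, exact p = 0.1, adjusted p = 0.3 over the 6 pairs). The Txn2/Txn1 ratio was -0.20, -0.37 and -0.28 in control and -0.05, -0.14 and -0.18 in KO, again without overlap (difference 0.16, exact p = 0.1, adjusted p = 0.3). In both ratios every same-numbered pair was also higher in KO (exact sign-flip p = 0.25 for each), and the cytosolic gene had the lower fitted value.

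The remaining 4 ratios overlapped between genotypes. Prdx3/Prdx1 differed by 0.13, from -0.48 ± 0.11 in control to -0.35 ± 0.08 in KO (SD, n = 3 each, exact p = 0.3), and it was higher in KO in all 3 same-numbered pairs, by 0.11, 0.19 and 0.08 (exact sign-flip p = 0.25, the smallest that 3 pairs allow). Sod2/Sod1 differed by -0.08, from -1.67 ± 0.03 to -1.76 ± 0.11 (n = 3 each, exact p = 0.3), and the difference between same-numbered libraries was widest in replicate 2. Txnrd2/Txnrd1 differed by 0.0087 (exact p = 0.9) and Glrx5/Glrx3 by -0.10 (exact p = 0.4). Their adjusted p-values lay between 0.45 and 0.9, where the smallest p that this permutation test allows is 0.1.

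**Figure D3:**
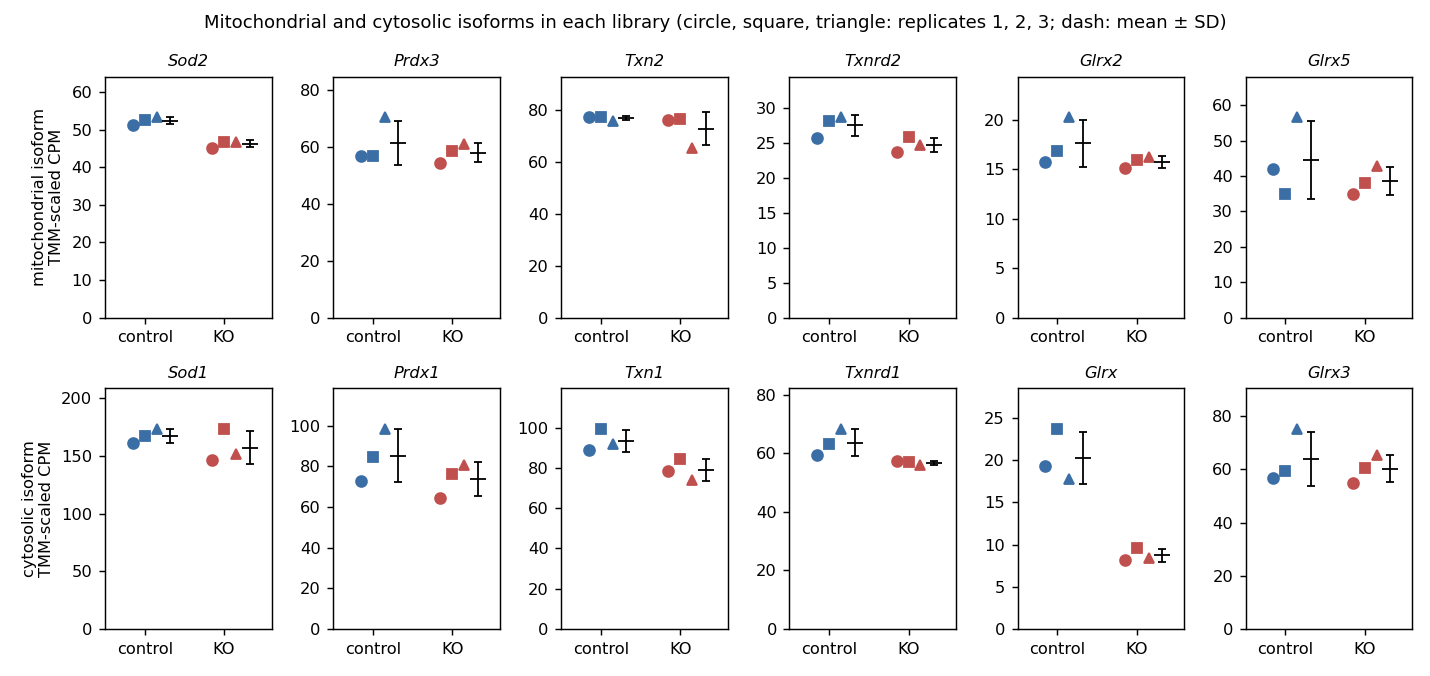
TMM-scaled CPM (y axes, from 0) of 6 mitochondrial isoforms (top) and their cytosolic counterparts (bottom) in 3 control and 3 KO libraries, with symbols for replicates 1 to 3 and dashes for mean ± SD. Glrx is lower in KO by 2.33-fold, and Sod2, Txn1 and Txnrd1 lie slightly lower without overlap and did not pass the test; heights cannot be compared between genes because CPM is not per length.

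**Figure D4:**
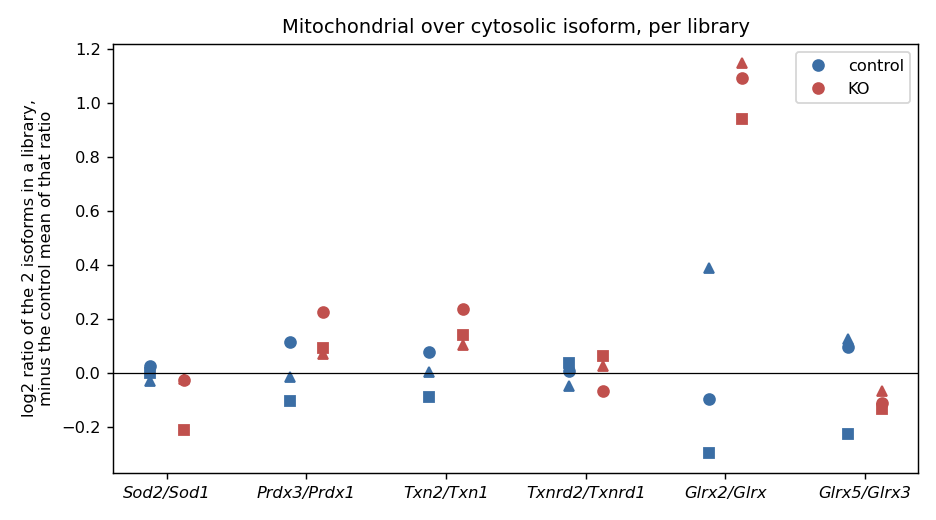
Log2 ratio of mitochondrial to cytosolic isoform in each library minus the mean of that ratio in control (y axis), for the 6 pairs (x axis), control in blue and KO in red. Glrx2/Glrx is the pair with a wide gap between genotypes, a difference of 1.06, and the other differences lie between -0.10 and 0.16.

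Other genes of these pathways, 129 in 5 lists, were examined beside the members. Of the 111 that were tested, 1 was called lower (Arrdc4) and 0 higher, beside 1.39% and 0.1% of all tested genes. Their median log2 fold change was -0.05, beside -0.0045 over all tested genes. With the replicate block 3 were called lower and 1 higher, and DESeq2 without the block called 2 lower and 0 higher. Of the 22 tested glutathione genes 0 were called, with Slc3a2, the heavy chain of the cystine transporter, at -0.03 ± 0.08 and the glutathione conjugate exporter Abcc1 at -0.05 ± 0.06. Slc7a11, the light chain of that transporter, did not pass the filter and had at most 1 count in any library. The value of Slc3a2 therefore does not give the level of the transporter. Gstt2, a theta class transferase, stood at 13.0, 16.9 and 13.0 CPM in control and 9.79, 10.4 and 7.92 CPM in KO. All KO libraries were lower (-0.61 ± 0.15), and it was called with the block (adjusted p = 0.00612) and in DESeq2 (0.0323) but not in edgeR without the block (0.12).

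Of the 26 tested NRF2 partners and targets, 0 were called, with the KEAP1-binding adaptor Sqstm1 at -0.10 ± 0.07 and the epoxide hydrolase Ephx1 at -0.01 ± 0.07. The haem oxygenase Hmox1 stood at 62.1, 120 and 83.4 CPM in control and 90.2, 174 and 78.7 CPM in KO (0.37 ± 0.32, adjusted p = 0.68), and the iron exporter Slc40a1 at 35.0, 86.6 and 54.6 CPM in control and 56.97, 136 and 54.3 CPM in KO (0.49 ± 0.40, adjusted p = 0.667), which the block called higher (adjusted p = 0.0319). Both genes, which red pulp macrophages express strongly, were highest in replicate 2 of each genotype, where the myeloid markers summed to 1216 and 1581 CPM against at most 855 CPM elsewhere. The part of myeloid RNA in them was not tested.

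Of 35 tested thioredoxin-fold, methionine sulfoxide reductase and selenoprotein genes 1 was called, Arrdc4, and of 13 tested NADPH supply genes 0, with the pentose phosphate enzymes Tkt and Taldo1 both at -0.13 ± 0.07. Of 15 tested genes for oxidant sources and brakes 0 were called, with the mitochondrial carrier Ucp2 and the oxidase activator Rac2 both at -0.09 (SE 0.07 and 0.08). Cybb, the catalytic subunit of the phagocyte NADPH oxidase, stood at 15.8, 19.5 and 13.5 CPM in control and 8.44, 14.6 and 8.55 CPM in KO. The KO library was lower in each same-numbered pair while the groups overlapped (-0.62 ± 0.23, adjusted p = 0.308), and the block called it lower (adjusted p = 0.00491). Slc7a11, Gstt2, Hmox1, Slc40a1 and Cybb were chosen for naming with their values in view.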

How the data were processed

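RNA of 3 control and 3 KO libraries was analysed. The 4 ATAC-seq libraries were not analysed here. The deposited values were read counts per Ensembl gene, described as HTSeq counts per the labels. The submitters' processing notes list, without roles, the builds mm9 and mm10 and the tools HISAT2, HTSeq, Cufflinks, DESeq2, SAMtools, Bowtie2 and bedtools; the annotation and strand setting are not given in the sources used, so overlapping genes on opposite strands cannot be told apart. Gene symbols came from a name table that matched 22522 of 22553 IDs. Promoters came from RefSeq (GRCm38.p6).

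Counts were tested with edgeR 4.0.16 (R 4.3.3; filterByExpr with minimum count 10 and minimum total 15, TMM, quasi-likelihood F test), Benjamini-Hochberg over 11990 genes, called at an adjusted p under 0.05. SEs were derived from the F statistic. DESeq2 1.42.0, limma-voom (limma 3.58.1), other scaling, no filter, a replicate block and left-out libraries were alternatives. The test was checked on simulated counts. Same-numbered libraries deviated together (correlations of deviations from the group means of log2(CPM + 1) across genes of 0.35, 0.55 and 0.56), so the replicate block took the numbers to pair them. The main fit did not use this pairing, so its adjusted p-values and calls ignore it. The labels do not say that pools came from separate litters or days, so p-values reflect only how far these pools differ, in part perhaps for technical reasons. Libraries of a group differed by more than sampling noise (chi-square over degrees of freedom between 8.75 and 27.4), so each counted once. Intervals and floors cover counting error only where so stated.

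The members, the other pathway lists and the tests were chosen with earlier results of these data known. Named genes were all members, with every library's value for called members, the isoform pairs and Nfe2l2, Keap1, Txnip, Gpx1, Gpx4, Cat, Fth1 and Ftl1; of each other list, up to 4 called members or else the 2 with the highest CPM. Every library's value or count is also given for Gpx7, Nqo1 and Srxn1, which this rule does not cover. Other pathway genes chosen with their values in view are marked.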

Additional observations from a re-analysis of the deposited data

How the results depend on the processing

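Glrx kept its direction in every alternative and its call in all but the fit without KO replicate 1; over the fits that left out 1 library the number of members called lower lay between 0 and 1 and of members called higher stayed at 0. With the replicate block 2 members were called lower, and the block changed no other member's call. Of the other pathway genes, 3 were called lower and 1 higher with the block, 2 lower in DESeq2 and 0 lower without both replicates 2, and between 0 and 1 lower with 1 library left out. Over all genes, the 167 lower and 12 higher calls became 526 and 236 with the block, 263 and 72 in DESeq2, 136 and 3 in limma-voom and 54 and 0 without both replicates 2; with 1 library left out they lay between 26 and 166 and between 0 and 10. The median log2 fold change lay between -0.18 and -0.066 for the matrix genes and between -0.084 and 0.024 for the cytosolic genes with 1 library left out.

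No called member changed sign, while 11 members that were not called did, among them Glrx5 at a fitted value of -0.21 and Nqo2 at -0.11. With 1 library left out, log2 fold changes ranged from -0.083 to 0.023 for Nfe2l1, -0.23 to 0.021 for Nqo2, -0.084 to 0.098 for Gclm, -0.16 to 0.0085 for Gpx1, -0.14 to 0.029 for Prdx3, -0.014 to 0.032 for Prdx6, -0.046 to 0.13 for Txnip, -0.15 to 0.052 for Glrx3, -0.35 to 0.0062 for Glrx5, -0.071 to 0.059 for Gstp1 and -0.065 to 0.036 for Fth1, and the Txnrd2/Txnrd1 difference from -0.019 to 0.046. Without both replicates 2, Prdx6 was at -0.0088, Txnip at -0.013 and the Txnrd2/Txnrd1 difference at -0.00047. The cause was not tested. Depth limits Nqo1, Srxn1 and Gpx7 most.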
